A study of Zea mays with 36 samples.

Results

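The genes for elongation factor 1-alpha (eEF1A) were followed across 2 maize cDNA array designs, SAM1 and SAM3. Members were the probes whose platform annotation gave EF1A, elfa2 or another symbol of the form elfa with a number. This found 92 of 35200 probes, 63 of 19200 on SAM1 and 29 of 16000 on SAM3. On SAM1, 24 probes were named EF1A, 25 elfa2, 9 elfa3 and 1 elfa5, while 2 were assigned to both elfa2 and elfa3 and 2 to both elfa2 and elfa5. On SAM3, 14 probes were named EF1A, 8 elfa2, 6 elfa3 and 1 elfa5. They stood for 4 of the 766 genes named on either design. The rule used names alone and no measured value, but it was set with earlier results of these data known.

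The study compared shoot apical meristems of rgd2-R mutant maize with those of plants the labels call non-mutant, grown under the same condition. The rgd2-R mutation, a lesion in the maize gene for an ARGONAUTE7-like protein, which acts with trans-acting small RNAs, had been introgressed into the inbred Mo17 for 5 generations. Meristem cells of both genotypes were taken by laser microdissection at 14 days after germination, and their RNA was amplified in 2 rounds before labelling. Each design held 6 biological replicates, and in each both genotypes shared 1 hybridisation, with rgd2-R in Cy3 and non-mutant in Cy5 in replicates 1 to 3 and the dyes swapped in replicates 4 to 6. The 3 scans of every hybridisation, labelled low, mid and high, were averaged into 1 value. The labels do not say how many plants went into a replicate.

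eEF1A, bound to GTP, carries each aminoacyl-tRNA to the ribosome and leaves as GDP-bound protein once the codon is matched. Its mRNA is among the most abundant in growing plant tissue, and plant genomes hold several copies with closely similar coding sequence. For that reason a cDNA probe named for 1 copy may also bind transcripts of another, and signals of the copies cannot be told apart here. In the order of the current gene table (Zm-B73-REFERENCE-NAM-5.0), elfa3 and elfa2 have 1 gene between them, elfa5 lies on the same chromosome with 30 genes between it and elfa2, and EF1A is on another chromosome.

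Ratios were formed after background correction and loess normalization as log2 of the rgd2-R signal over the non-mutant signal, so that positive values are higher in rgd2-R. A linear model gave each probe a ratio and a dye term, the log2 difference of Cy3 over Cy5 that does not follow genotype, and a probe was called where its p, adjusted by Benjamini-Hochberg over all spots of the array, was under 0.05. Median raw signals ran from 46.5 to 1947.5 scanner units over the 36 readings, and at most 5 spots of a reading reached 65000 units in a dye. The number of arrays limits the precision of every ratio. The 3 readings of a replicate correlated at 0.797 or more on SAM1 over brighter spots, except in replicate 5, where r lay between 0.39 and 0.457.

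The direction of SAM3 ratios was not settled. In replicate 3 the low and mid readings correlated with each other at 0.861 over all spots but with the high reading at -0.911 and -0.909. In those 2 readings the median Cy3 signal was 0.381 and 0.568 times the median Cy5 signal, whereas in the other 34 readings of both designs it was 1.53 to 5.19 times. With these 2 readings turned, replicate 3 correlated with replicate 1 at 0.62, against -0.544 as labelled, and replicate 2 correlated with the mean of the other two at -0.341. SAM3 values are therefore given with the dyes as labelled, and the fitted ratios and counts also with these turns. Ratios of single SAM3 replicates, intensities and p-values are as labelled unless a turn is named.

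**Figure D1:**
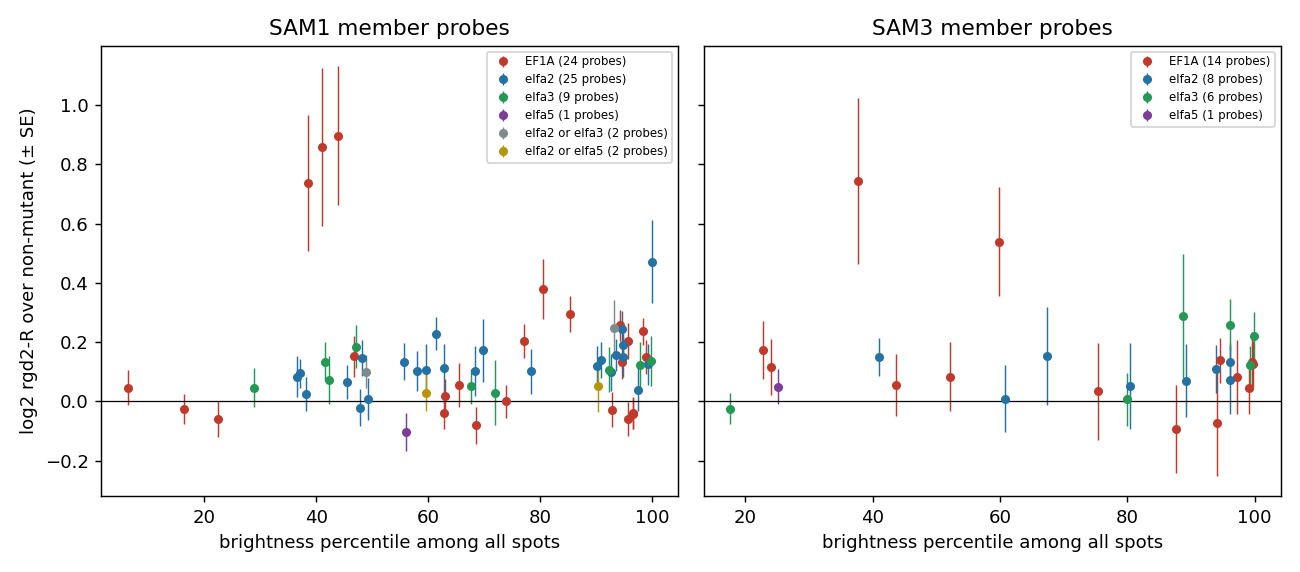
Log2 ratio of rgd2-R over non-mutant (points, bars ± SE of the limma model, 6 replicates) against the brightness percentile of each probe among all spots, for the 63 member probes on SAM1 and the 29 on SAM3, dyes as labelled. Most points lie a little above 0, and the 5 ratios over 0.5 belong to EF1A probes in the middle of the brightness scale.

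On SAM1 most member ratios lay slightly above 0, mainly through the replicates with rgd2-R in Cy3. There the EF1A, elfa2 and elfa3 gene means were 0.34, 0.24 and 0.18, against 0.013, 0.014 and 0.018 with rgd2-R in Cy5. The single elfa5 probe went the other way, at -0.28 and 0.077. Over all members the fitted ratio was above 0 for 53 of 63 probes (84.1%), against 51.2% of all spots. Its median was 0.107, against 0.00267 over all spots. No member probe was called by limma, and neither was any other spot (0% of 19200). At an unadjusted p under 0.05, 18 members (28.6%) were higher and 0 lower in rgd2-R, where 6.68% of all spots were higher and 8.12% lower. All 6 replicates were above 0 for 6 members (9.52%), against 3.11% of all spots, and below 0 for 0 members, against 3.83%. Member probes share target sequence, so these counts do not stand for independent measurements. The smallest adjusted p among members was 0.119, at EF1A probe 4152.

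The family was bright. On SAM1, 24 of the 63 probes (38.1%) lay above the 90th percentile of spot brightness, which by construction holds 10% of spots, and on SAM3 12 of 29 (41.4%) did. In all 18 readings, 34 members on SAM1 and 16 on SAM3 stood more than 100 units above background in both dyes. The highest raw signal of any member was 62640 units on SAM1 and 63651 units on SAM3, below the 65000 limit. Brightness still ran over the whole scale within a gene, from percentile 6.28 to percentile 99.0 for the 24 EF1A probes on SAM1.

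The largest ratios came from 3 dim EF1A probes on SAM1, numbered 5293, 5974 and 2751. Probe 5974, at percentile 40.9 of brightness, had normalised intensities of 1440, 367, 522, 955, 199 and 252 units in rgd2-R in replicates 1 to 6, against 277, 359, 235, 507, 182 and 172 units in non-mutant. The genotypes stood far apart in replicates 1, 3 and 4 and close together in replicates 2 and 5. Its log2 ratios were 2.37, 0.034, 1.15, 0.91, 0.13 and 0.55, with a fitted ratio of 0.86 ± 0.27 (SE, limma adjusted p = 0.208).

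Probe 2751, at percentile 38.6, followed the same replicates. Its intensities were 1320, 390, 442, 678, 215 and 230 units in rgd2-R, against 309, 358, 235, 386, 164 and 217 units in non-mutant, and its ratios were 2.09, 0.12, 0.91, 0.81, 0.39 and 0.086. The fit gave 0.74 ± 0.23 (SE, limma adjusted p = 0.209).

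Probe 5293, at percentile 43.9, was high in replicates 1, 3 and 4 too. Intensities in rgd2-R were 597, 464, 693, 1170, 240 and 388 units, against 177, 431, 224, 491, 208 and 289 units in non-mutant. The ratios were 1.76, 0.11, 1.63, 1.26, 0.21 and 0.42, and the fitted ratio was 0.90 ± 0.23 (SE, limma adjusted p = 0.155). In the main setting all 6 replicates of each of these 3 probes were above 0. Replicates 1 and 3 had rgd2-R in Cy3, and replicate 4 had it in Cy5. These probes were 3 of the 53 spots on SAM1 (0.276%) with a ratio above 0.5. They were also the only members with any replicate above 1, as 1.54% of all spots had.

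These signals were weak. Only 9, 4 and 4 of the 18 readings of probes 5293, 5974 and 2751 stood more than 100 units above background in both dyes. In the mid reading of replicate 1, probe 5974 had 2418 units above background in rgd2-R and -1 unit in non-mutant. Plain background subtraction gave ratios of 1.51, 1.51 and 2.00 for the 3 probes in the order above, and the authors' value table gave 1.09, 1.22 and 1.22. Under plain subtraction probe 5293 had no value in replicate 1, and probe 5974 fell to -1.22 in replicate 6. In replicate 2 probe 5974 was at -0.11 without background correction and at -0.043 in the authors' value table. Without background correction the ratios were 0.98, 1.11 and 1.04, and limma then called probes 5293 and 2751 (adjusted p = 0.0352 and 0.0461), the only member probes called under any alternative run.

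**Figure D2:**
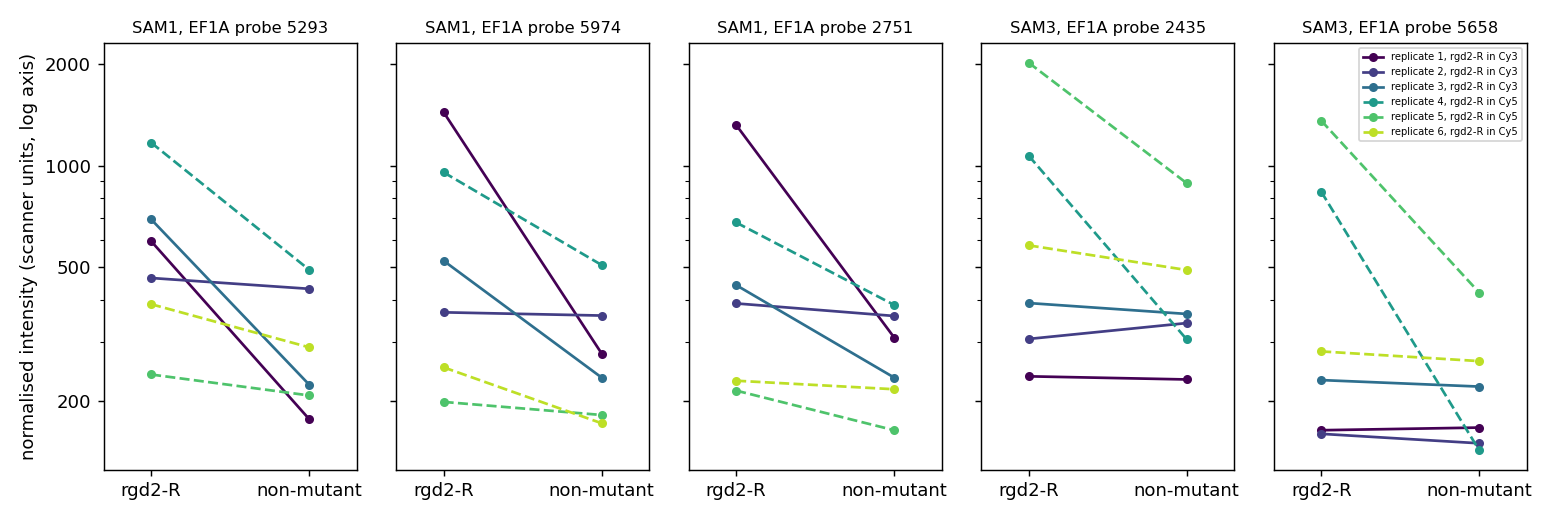
Normalised intensity (scanner units, log axis) in rgd2-R (left of each panel) and non-mutant (right) for the 5 EF1A probes with a ratio above 0.5, each line joining both genotypes of 1 replicate, solid with rgd2-R in Cy3 and dashed with rgd2-R in Cy5. On SAM1 the steep lines are those of replicates 1, 3 and 4, and on SAM3 those of replicates 4 and 5.

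The annotation gave 3 EF1A probes the same cDNA clone on both designs, which allowed the pattern to be read on separate arrays. The clone of SAM1 probe 5974 was SAM3 probe 5658. It had the largest ratio of any SAM3 member as labelled and with either turn, neither of which changes replicates 4 to 6. Its intensities on SAM3 were 164, 160, 231, 837, 1360 and 281 units in rgd2-R, against 167, 150, 221, 143, 420 and 263 units in non-mutant. The ratios of -0.028, 0.095, 0.065, 2.55, 1.69 and 0.099 were high in replicates 4 and 5 alone, both with rgd2-R in Cy5. Its dye term of -0.70 ± 0.28 (SE, limma adjusted p = 0.743) was nearly as large as its ratio. In the authors' value table the ratios of probe 5658 were -0.88, 1.81, 1.47, 4.23, 2.94 and 0.24, with a fit of 1.64. Replicates 2 and 3, with rgd2-R in Cy3, were above 1 there as well, so this pattern depended on the processing.

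The clone of SAM1 probe 2751 was SAM3 probe 2435. It gave 237, 306, 391, 1070, 2020 and 580 units in rgd2-R, against 232, 341, 363, 305, 887 and 490 units in non-mutant. Its ratios were 0.033, -0.16, 0.11, 1.82, 1.19 and 0.24, again high in replicates 4 and 5, with rgd2-R in Cy5. Its dye term was -0.54 ± 0.18 (SE, limma adjusted p = 0.710). At both probes the ratio and the dye term rested mainly on replicates 4 and 5. Replicate 6, in the same orientation, was at 0.099 for probe 5658 and 0.24 for probe 2435. On SAM1 the same clones had dye terms of the opposite sign, 0.33 ± 0.27 and 0.31 ± 0.23 (SE). Whether genotype or dye lay behind the high replicates was not tested. Probes 5658 and 2435 were the only SAM3 members with a ratio above 0.5 (0.1% of all spots) or with any replicate above 1 (1.05% of all spots). The fitted ratios were 0.74 ± 0.28 for probe 5658 and 0.54 ± 0.18 for probe 2435 (SE, limma adjusted p = 0.697 and 0.651). They were 0.72 and 0.45 after the 2 readings of replicate 3 were turned and 0.69 and 0.50 with replicate 2 turned as well. Those turns change only replicates 2 and 3, so the high replicates 4 and 5 stayed as they were and little change was possible. Whether a replicate number stands for the same plants on both designs is not stated in the labels.

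The third shared clone, SAM1 probe 6378 and SAM3 probe 6022, was bright on both designs, and its ratios were small. On SAM1 its ratios were 0.40, 0.31, 0.11, 0.070, -0.12 and 0.040, with a fit of 0.13 ± 0.060 (SE, limma adjusted p = 0.358). On SAM3 they were -0.29, 0.32, 0.15, 0.37, 0.34 and -0.38, with a fit of 0.083 ± 0.12 (SE, limma adjusted p = 0.972), which became -0.0030 with the readings turned and -0.11 with replicate 2 turned as well. No replicate of this clone came near the ratios above 1 seen at the dim probes.

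A second group of EF1A probes on SAM1 split by dye orientation. Probe 11243, at percentile 94.2, had 5690, 9460 and 1940 units in rgd2-R in replicates 1 to 3, against 3720, 5820 and 1210 units in non-mutant. In replicates 4 to 6, with rgd2-R in Cy5, it had 3790, 3710 and 5420 units in rgd2-R, against 4590, 4000 and 5640 units in non-mutant. Its ratios were 0.61, 0.70 and 0.67 in the first orientation and -0.27, -0.11 and -0.058 in the second, without overlap. The ratio was 0.26 ± 0.053 (SE, limma adjusted p = 0.124) and the dye term 0.40 ± 0.053 (SE, adjusted p = 0.206), both for 1 probe of 19200.

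Probes 10989 and 9321 had the next largest dye terms, 0.35 and 0.33. Probe 10989 gave ratios of 0.65, 0.63 and 0.39 with rgd2-R in Cy3 and -0.19, -0.18 and -0.069 with rgd2-R in Cy5. Probe 9321 gave 0.69, 0.44 and 0.48 in Cy3 and -0.088, -0.26 and -0.028 in Cy5. In each the mean of the 6 replicates is a balance of clearly positive values in 1 orientation and values near or below 0 in the other. EF1A probe 4152, which had the smallest unadjusted p of any member, was of this kind too, with 0.50, 0.45 and 0.50 in Cy3 and -0.030, -0.0061 and -0.00052 in Cy5.

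Probes 1298 and 12168, named after their values were seen, had larger ratios than these 4. Probe 1298 gave 0.38, 0.81 and 0.66 in Cy3 and 0.16, -0.23 and 0.50 in Cy5, with a fit of 0.38 ± 0.10 (SE, limma adjusted p = 0.163). Probe 12168 gave 0.48, 0.51 and 0.73 in Cy3 and -0.077, 0.15 and -0.023 in Cy5, with a fit of 0.29 ± 0.060 (SE, limma adjusted p = 0.124).

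The other EF1A probes on SAM1 had ratios between -0.080 and 0.15. The lowest were -0.080 at probe 9775 (0.037, 0.093, -0.078, -0.38, -0.098 and -0.048) and -0.060 at probe 2816 (-0.081, -0.033, 0.21, -0.17, -0.15 and -0.13). Probe 2816 was bright, at percentile 95.6. Bright probes named for the same gene thus ran from -0.060 to 0.26 above the 90th percentile.

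The 3 dimmest members on SAM1, EF1A probes 4473, 3247 and 3796, had ratios of 0.047, -0.025 and -0.060. Their single replicates lay between -0.20 and 0.18, and at most 3 of 18 readings stood more than 100 units above background in both dyes. No genotype difference was detectable at this signal.

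elfa2 was the member with the most probes on SAM1, and 24 of its 25 ratios were above 0, between -0.021 and 0.47 (median 0.11). The highest belonged to probe 100, the brightest member on the array at percentile 99.9. It had 19600, 32500, 22800, 42500, 17700 and 48500 units in rgd2-R, against 19400, 32800, 11600, 25900, 14100 and 27500 units in non-mutant. The ratios of 0.013, -0.012, 0.97, 0.72, 0.33 and 0.82 were near 0 in replicates 1 and 2 and positive in both orientations otherwise (fit 0.47 ± 0.14, SE, limma adjusted p = 0.192).

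The next brightest elfa2 probe, 17691, did not share that pattern. Its ratios were 0.089, 0.12, 0.43, 0.19, -0.10 and 0.019, with a fit of 0.13 ± 0.069 (SE, limma adjusted p = 0.459). The other 23 elfa2 probes had ratios of 0.24 or less. At an unadjusted p under 0.05, 6 of the 25 elfa2 probes were higher in rgd2-R and 0 lower, against 6.68% and 8.12% of all spots.

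elfa3 had 9 probes on SAM1, all with ratios above 0, from 0.029 to 0.19. Its brightest, 18594 at percentile 99.7, gave -0.025, 0.39, 0.38, 0.27, -0.18 and -0.0080, a spread that crossed 0 in both orientations. The single elfa5 probe on SAM1, 6621, had the lowest ratio of all members, -0.10 ± 0.064 (SE, limma adjusted p = 0.526). Its replicates were -0.32, -0.39 and -0.13 with rgd2-R in Cy3 and 0.049, -0.071 and 0.25 with rgd2-R in Cy5, the opposite order of orientations from most EF1A probes. The 4 probes assigned to a pair of elfa genes had ratios from 0.029 to 0.25.

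**Figure D3:**
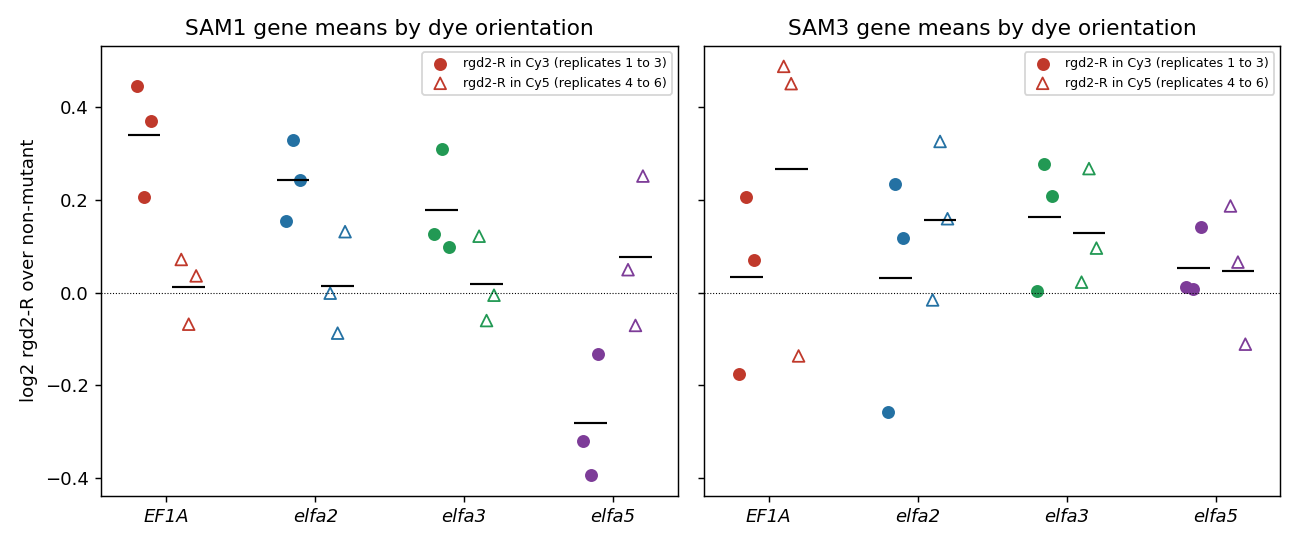
Log2 ratio of rgd2-R over non-mutant averaged over the probes of each gene, 1 point per replicate, filled circles with rgd2-R in Cy3 and open triangles with rgd2-R in Cy5, with a bar at each orientation's mean, dyes as labelled. On SAM1 the EF1A circles (0.21 to 0.45) all lie above the triangles (-0.068 to 0.071), whereas on SAM3 the EF1A orientations overlap.

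Averaged over its 24 probes, EF1A on SAM1 had ratios of 0.45, 0.21, 0.37, 0.071, -0.068 and 0.036. The fitted gene ratio was 0.18 ± 0.054 (SE, limma adjusted p = 0.215), a 1.13-fold level in rgd2-R, positive in 5 of 6 replicates. By orientation it was 0.34 ± 0.12 with rgd2-R in Cy3 and 0.013 ± 0.073 with rgd2-R in Cy5 (SD, n = 3 each). The 3 dim probes carried much of it. Without them the gene ratio was 0.084 (limma adjusted p = 0.483), and the median over the 24 probes in place of the mean gave 0.058.

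The elfa2 mean on SAM1 was 0.16, 0.33, 0.24, -0.0014, -0.088 and 0.13, with a fit of 0.13 ± 0.054 (SE, limma adjusted p = 0.349). For elfa2 the orientation means were 0.24 ± 0.087 in Cy3 and 0.014 ± 0.11 in Cy5 (SD, n = 3 each). The elfa3 mean was 0.13, 0.31, 0.098, 0.12, -0.061 and -0.0058, with a fit of 0.098 ± 0.055 (SE, limma adjusted p = 0.489). Thus the ratios of all 3 genes with several probes lay near 0 when rgd2-R was labelled with Cy5. In order of the fitted ratio, EF1A, elfa2, elfa3 and elfa5 came down the scale, and no difference between neighbours in that order was tested.

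The dye term of the EF1A mean on SAM1 was 0.16 ± 0.054 (SE, limma adjusted p = 0.405). Over single probes it was above 0 for 57 of 63 members (90.5%), against 51.4% of all spots, with a median of 0.118. No spot passed the adjusted threshold for the dye term on SAM1 (0% of 19200). At an unadjusted p under 0.05, 14 members (22.2%) had Cy3 higher, against 5.58% of all spots, and 2 had Cy5 higher, against 4.57%. The replicates of 20 members (31.7%) did not overlap between orientations and were higher with rgd2-R in Cy3, against 9.64% of all spots. Those of 2 members did not overlap and were higher with rgd2-R in Cy5, a direction for which the share of all spots was not counted. The median dye term of the brightest 10% of all SAM1 spots was -0.0134.

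**Figure D4:**
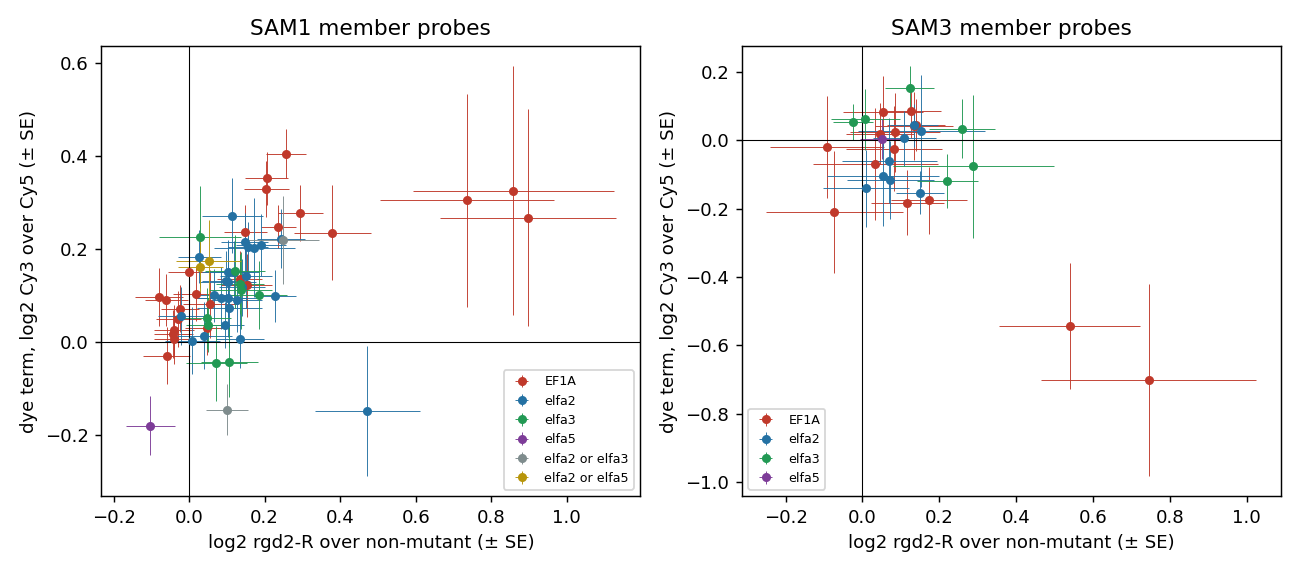
Dye term (log2 Cy3 over Cy5) against the log2 ratio of rgd2-R over non-mutant for each member probe, with bars of ± SE from the limma model, dyes as labelled. On SAM1 57 of 63 points lie above the horizontal zero line, and on SAM3 14 of 29 do, with both high EF1A probes at the lower right.

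On SAM3 the same tendency of ratios was seen as labelled but not of dye terms. As labelled, the ratio was above 0 for 26 of 29 members (89.7%), against 48.6% of all spots, with a median of 0.109. limma called no spot (0% of 16000). At an unadjusted p under 0.05, 4 members (13.8%) were higher, against 2.99% of all spots, and 0 lower, against 3.59%. No member had all 6 replicates above 0 or all below, where 1.54% and 1.61% of all spots had. The dye term was above 0 for 14 of 29 members (48.3%), against 50.1% of all spots, and again no spot passed (0% of 16000). At an unadjusted p under 0.05, 0 members had Cy3 higher, against 3.66% of all spots, and 3 had Cy5 higher, against 2.89%. In 1 member (3.45%) the orientations did not overlap with Cy3 higher, against 6.56% of all spots. In 2 members, EF1A probes 5658 and 2435, they did not overlap with Cy5 higher. The share of all spots in that direction was not counted. With the readings of replicate 3 turned, 5 of 29 dye terms were above 0, against 53.9% of all spots, and with replicate 2 turned as well 4 were, against 52.6%. In that last setting 12 members had Cy5 higher at an unadjusted p under 0.05, against 6.06% of all spots.

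That tendency changed with the direction of replicate 3. With its low and mid readings turned, 16 of 29 members were above 0 and the median ratio was 0.016, against 50.9% of all spots above 0. In this setting 2 members were higher at an unadjusted p under 0.05 and 0 lower, against 2.62% and 4.79% of all spots. With replicate 2 turned as well, 11 of 29 were above 0 and the median was -0.0471, against 49.1% of all spots above 0. Here 3 members were higher at an unadjusted p under 0.05 and 2 lower, against 8.08% and 8.57% of all spots. No member was called under either turn. In replicate 3 as labelled, 25 of 29 members had low and mid readings of 1 sign and a high reading of the other. The median member ratio was 0.297 in the low reading, 0.374 in the mid reading and -0.346 in the high reading.

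**Figure D5:**
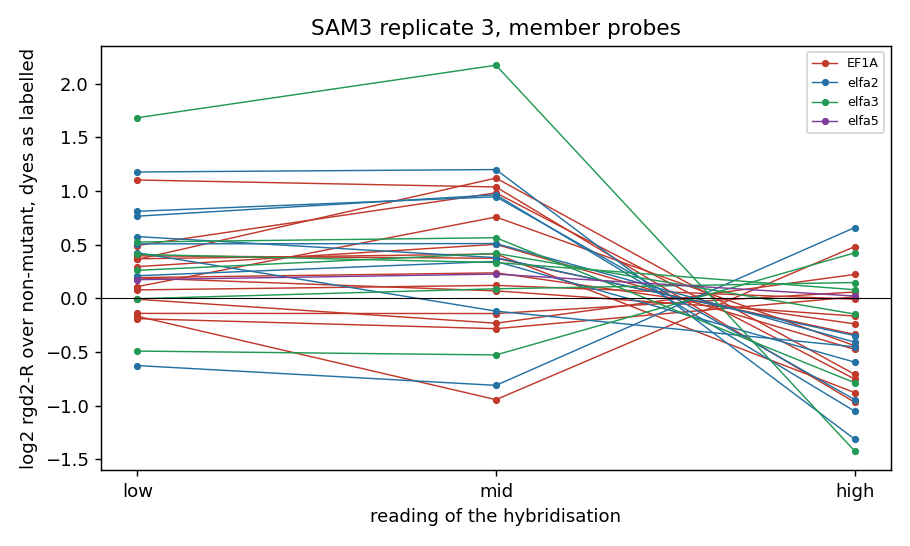
Log2 ratio of rgd2-R over non-mutant, dyes as labelled, in the low, mid and high readings of SAM3 replicate 3, 1 line for each of the 29 member probes, coloured by gene. In the low and mid readings 22 of 29 members lie above 0, and in the high reading 9 do.

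The EF1A mean on SAM3 was -0.18, 0.21, 0.070, 0.49, 0.45 and -0.14, with a fit of 0.15 ± 0.099 (SE, limma adjusted p = 0.892). Both high probes again carried much of it, and without them the gene ratio was 0.069 (limma adjusted p = 0.965). It was 0.14 without replicate 3, 0.094 with the 2 readings turned and 0.025 with replicate 2 turned as well. For elfa2 the replicate means were -0.26, 0.23, 0.12, -0.016, 0.33 and 0.16, with a fit of 0.094 as labelled, -0.0071 with the readings turned and -0.085 with replicate 2 turned too.

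The elfa3 mean on SAM3 was 0.0024, 0.28, 0.21, 0.022, 0.27 and 0.096, positive in 6 of 6 replicates as labelled, with a fit of 0.15 ± 0.061 (SE, limma adjusted p = 0.765). It came to 0.13 without replicate 3, to 0.045 with the readings turned and to -0.048 with replicate 2 turned as well. The single elfa5 probe, 13165, was dim at percentile 25.1 and had a ratio of 0.050 ± 0.058 (SE, limma adjusted p = 0.951), 0.0059 with the readings turned and 0.0033 with replicate 2 turned as well. No direction can be given for elfa2 or elfa3 on this design.

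The brightest member on SAM3 was elfa3 probe 14117, at percentile 99.9. It had 1690, 14800, 13300, 10100, 45900 and 28800 units in rgd2-R, against 1500, 11800, 15300, 8250, 38700 and 20700 units in non-mutant, and ratios of 0.18, 0.33, -0.20, 0.30, 0.25 and 0.48. Replicate 3 alone was below 0 as labelled, and its low, mid and high readings were -0.49, -0.53 and 0.42. The fitted ratio was 0.22 as labelled, 0.33 with the readings turned and 0.22 with replicate 2 turned as well, and limma did not call it (adjusted p = 0.668).

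The next brightest were EF1A probes 12546 and 11084. Probe 12546 gave 0.38, 0.25, -0.0046, 0.19, 0.13 and -0.20, and probe 11084 gave 0.29, 0.31, -0.073, 0.38, 0.19 and -0.29. In both, replicates 3 and 6 were the low ones, 1 in each orientation. Their fitted ratios were 0.13 and 0.13 (limma adjusted p = 0.875 and 0.915), 0.15 and 0.17 with the readings turned and 0.069 and 0.061 with replicate 2 turned as well.

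Several bright members stood low in SAM3 replicate 1. There, 8 of 29 (27.6%) had a ratio under -0.4, against 7.75% of all spots. Among spots more than 100 units above background in all readings, 7 of 16 members (43.8%) and 29.4% of all such spots did. EF1A probe 14989 gave -1.10 in replicate 1 and 0.28, -0.031, 0.30, 0.30 and -0.19 in the others. EF1A probe 14316, with the lowest ratio of SAM3 members as labelled, gave -0.81, 0.22, 0.26, -0.20, 0.16 and -0.18. The ratios of probes 14989 and 14316 were -0.073 and -0.091 as labelled, -0.16 and -0.26 with the readings turned and -0.25 and -0.33 with replicate 2 turned as well. Probe 12276 of elfa3 gave -0.82, 0.64, 0.81, 0.22, 0.60 and 0.27, the third largest fitted ratio at 0.29 as labelled, which became -0.14 with the readings turned and, with replicate 2 turned as well, the lowest of all SAM3 members at -0.35.

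At the dim end of SAM3, EF1A probes 8972 and 13606 lay at percentiles 22.7 and 24.0. Their ratios were 0.022, 0.12, -0.15, 0.74, 0.31 and -0.0015 for probe 8972 and 0.013, -0.0022, -0.21, 0.61, 0.38 and -0.092 for probe 13606. In both, replicates 4 and 5 were the high ones, as at probes 5658 and 2435, but the signals were near background, with 2 and 1 of 18 readings more than 100 units above it in both dyes. Their fitted ratios were 0.17 and 0.12 as labelled, 0.23 and 0.24 with the readings turned and 0.19 and 0.24 with replicate 2 turned as well. The dimmest member, elfa3 probe 4228, stayed between -0.20 and 0.079.

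The genes whose replicate ratios were most like the EF1A mean were found among named genes with 2 or more probes, 299 on SAM1 and 262 on SAM3, by Pearson correlation over 6 replicates. All share hybridisations and dye orientations with EF1A. On SAM1 they were aldh5 (r = 0.952), gpm399a (0.921), b-70 (0.911), pk8-a (0.907) and leg1 (0.902). Their fitted ratios ran from -0.042 for aldh5, an aldehyde dehydrogenase gene, to 0.22 for b-70, and none was called. On SAM3 they were CDPK2 (0.950), toc34 (0.917), eno1 (0.908), kin4 (0.894) and gst1 (0.880), with ratios from -0.019 to 0.10. This SAM3 order depended on direction. With the readings turned the first 5 were ss2, eno1, gst1, kin4 and tua3, and CDPK2 took place 104 of 262. With replicate 2 turned as well they were kin4, eno1, eif3, KIN9 and eIF-4A. Only eno1 and kin4 were among the first 5 in all 3 settings.

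Other genes of translation were set beside the family. The list of translation factors, found by symbol or synonym, held 8 genes on each design, and 0 were called in either direction, as over all gene-level rows (0% of 17983 on SAM1 and 0% of 15439 on SAM3). On SAM1 2 of 8 ratios were above 0 and the median was -0.026, where 51.4% of all rows were above 0. The lowest was TIF, also named tif1, an initiation factor gene, with -0.055, -0.71, -0.88, -0.18, 0.053 and -0.41 (fit -0.36 ± 0.11, SE, limma adjusted p = 0.224).

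The other 7 factors on SAM1 lay close to 0. The RNA helicase genes of the eIF4A family were 0.022 for eIF-4A and -0.014 for tif-4A3, with dye terms of 0.19 and 0.24 that had the sign of the EF1A dye term. The eIF5A genes tif5A and eif5a were at -0.079 and -0.088, and eif3, eif7 and eIF-5 were at 0.023, -0.0058 and -0.037. On SAM3, 6 of 8 were above 0 as labelled, against 48.5% of all rows, from -0.078 for TIF to 0.26 for eif7, with eIF-5 at 0.17, eIF-4A at 0.13, eif3 at 0.11, tif5A at 0.080, tif-4A3 at 0.051 and eif5a at -0.0021. With the readings turned these became -0.057, 0.096, -0.12, 0.093, 0.0090, 0.00069, -0.16 and -0.24 in the same order. In that setting 4 of 8 were above 0 with a median of -0.028, against 51.3% of all rows. With replicate 2 turned as well 1 of 8 was, eif7 at 0.14, with a median of -0.053, against 49.4% of all rows.

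Ribosomal protein genes, the other large class of abundant translation transcripts, were matched by symbol or synonym. On SAM1, 11 of 15 were above 0 with a median of 0.024, where 51.4% of all rows were above 0. Of these genes 0 were called, as over all rows (0% of 17983). Those with the smallest p were RPL10 at 0.27, with all 6 replicates above 0, RPS21 at -0.87, rpl12 at 0.22 and rps6-2 at 0.11 (limma adjusted p from 0.162 to 0.399). RPS21 rested on 1 probe with ratios of -2.14, 0.19, -1.43, -0.51, -0.42 and -0.94. Its replicates 1 and 3 were the farthest below 0, where the dim EF1A probes were far above it.

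On SAM3 the symbol pattern took 19 genes, of which RPD2, rpd3 and rpo2 are named for RNA polymerase subunits and a histone deacetylase and not for ribosomal proteins. Of the other 16, 9 were above 0 as labelled with a median of 0.036, where 48.5% of all rows were above 0, and 0 were called. With the readings turned 8 were above 0 with a median of 0.00026, against 51.3% of all rows, and with replicate 2 turned as well 8 were, with a median of -0.00081, against 49.4%. Those with the smallest p were RPL10 at 0.15, rpp3 at 0.23, rpp2a-3 at 0.12 and rpl30 at 0.12 (limma adjusted p from 0.819 to 0.834). With the readings turned they were 0.084, 0.078, 0.066 and 0.14, and with replicate 2 turned as well 0.13, -0.11, 0.024 and 0.19.

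Markers of the labelled tissue and of others were read as the percentile of each gene's brightest probe, which does not order transcript amounts between genes. The meristem KNOX gene kn1 lay at percentile 94.1 on SAM1 and 96.5 on SAM3, and the other meristem genes at 40.3 on SAM1 (lg3) and at 16.1 to 77.0 on SAM3 (knox8, knox3, lg3). The vascular markers on SAM1, sus1, sh1 and bm1, ran from 9.87 to 98.5, and those on SAM3, sus1, sut1 and sh1, from 67.1 to 98.8. Epidermis markers ran from 23.8 to 85.1 on SAM1 and from 29.5 to 79.6 on SAM3, and photosynthesis markers from 8.62 to 44.9 and from 14.1 to 50.2. The marker lists held 2 meristem, 4 photosynthesis, 4 epidermis and 3 vascular genes on SAM1 and 4, 3, 3 and 3 on SAM3, and 0 were called. On SAM1 the ratio was -0.12 for kn1 and 0.17 for lg3 (limma adjusted p = 0.565 and 0.244). On SAM3 kn1 was at -0.065 as labelled, -0.15 with the readings turned and -0.24 with replicate 2 turned as well, and as labelled the other meristem genes ran from 0.0015 (lg3) to 0.019 (knox3). With the readings turned lg3, knox3 and knox8 were at -0.23, -0.048 and 0.0315. With replicate 2 turned as well they were at -0.12, -0.20 and 0.025. A different share of meristem cells in the captured tissue and a different amount of transcript per cell cannot be told apart in these samples, and their part in the EF1A ratios was not tested.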

How the data were processed

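RNA from microdissected meristems was hybridised on 12 arrays, each read 3 times. Per the file headers, the deposited intensity values are mean scanner signal and mean local background of each spot and dye, with no normalization. The deposited natural log values are the authors' processed levels and ratios, and how they were made is not stated. The slope of their per-dye values on the natural log of signal over background was 0.782 to 1.07, which set the base. Set against the labelled dyes, their value table runs as non-mutant over rgd2-R; its columns have medians between -0.08 and 0.044, and it was turned where used.

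Signals were corrected with normexp (offset 50), normalized by loess within each array and averaged over 3 readings (limma 3.58.1, R 4.3.3). Genotype and dye were fitted by lmFit and eBayes, leaving 4 residual degrees of freedom, per spot and per gene mean, with every spot lacking a single gene name as its own row. SE is the model's, SD is over replicates, and p-values are two-sided. The model was also run on simulated data with independent normal noise and planted changes. That simulation held no dye effect, reversed readings, weak signal or shared target sequence, so no conclusion on these data is drawn from it.

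Probes were named by GEO's platform annotation, with symbols brought up to date by Entrez identifier: 1800 probes on SAM1 and 1159 on SAM3 had 1 gene, 23 and 1 had several and got no single name, and the rest none. The gene table holds no descriptions, so lists were matched on symbols and synonyms. Named probes were, per array, the 3 brightest, 3 dimmest, 3 highest, 3 lowest and 3 with the largest dye term, then the 5 genes most like EF1A, all listed translation factors and the 4 ribosomal protein genes with the smallest p. Alternatives changed background correction, normalization, readings, dim or saturated spots, the dye term, probe averaging, SAM3 direction and the replicates kept, or took the authors' value table. Added after values were seen were the clones on both arrays, EF1A probes 4152, 1298 and 12168 and elfa5 probe 13165. Members and lists were chosen with earlier results of these data known. The 3 readings of a hybridisation were counted as 1 replicate.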

Additional observations from a re-analysis of the deposited data

Results flagged for a closer look

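Of 36 sets of 6 replicate values examined, the 8 gene means and the probes named by rule or by shared clone, 4 held 1 replicate far from the other five. A check of this kind marks about 1 set in 20 by chance.

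EF1A probe 2816 on SAM1 stood at 0.205 in replicate 3, above its other replicates, none of which was above 0. EF1A probe 14989 on SAM3 stood at -1.10 in replicate 1, and elfa3 probe 12276 on SAM3 stood at -0.821 in the same replicate. The dim elfa3 probe 4228 on SAM3 stood at -0.205 in replicate 4. The cause was not tested in any of the 4.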

How the results depend on the processing

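No gene ratio of the family was called under any alternative. With the ratios left without normalization the SAM1 values turned to -0.0816 for EF1A, -0.128 for elfa2 and -0.164 for elfa3. The SAM3 elfa5 ratio turned to -0.00597. In this setting the EF1A dye term became 1.10 on SAM1 (limma adjusted p = 0.000708). On SAM3 it turned to 0.448 (limma adjusted p = 0.0326), against -0.117 with loess. The setting does not remove the difference in signal between the dyes, and its part in these changes was not tested. On SAM3, elfa2 was -0.0186 in the high reading alone, -0.00711 with the low and mid readings of replicate 3 turned and -0.0853 with replicate 2 turned as well, where elfa3 was -0.0475. All other alternatives kept the sign of each ratio. Leaving out each replicate gave EF1A 0.151 to 0.211 on SAM1 and 0.0955 to 0.252 on SAM3. No probe was called in the main setting on SAM1, but 195 were without background correction (2 of them members), 42 without the dimmest 25% of spots, 36 in the mid reading alone, 11 with median centring, 1 in the authors' value table, and 0 to 2 when a replicate was left out (2 without replicate 2). On SAM3, 3 were called without normalization and 2 with readings and replicate 2 turned. Of the alternatives, leaving out members with a ratio above 0.5 and turning the high reading of replicate 3 (EF1A 0.184) were chosen after seeing the data. No paired analysis was possible because, beyond the pairing of both genotypes within a hybridisation that every ratio already holds, the dye orientations share no replicate numbers. Weak signal limits the dim probes and the number of arrays limits all ratios.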
